A study of Mus musculus with 9 samples.

Results

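The mitochondrial respiratory chain and ATP synthase genes were followed in the livers of mice on a high-fat diet with Astragalus polysaccharides (APS), on the high-fat diet alone, and on chow. Members were chosen by name and by signal: every probe whose gene name begins with Nduf, Uqcr or Atp5, is one of the Sdha to Sdhd genes, or begins with Cox followed by a digit from 4 to 8, and which was well above background on at least 3 of the 9 arrays. The array carried 134 such probes for 92 genes, and 129 probes for 89 genes passed the signal filter, out of 17636 genes and unnamed transcripts tested in all. By symbol, 36 members are subunits of complex I, 4 of complex II, 8 of complex III, 15 of complex IV (with Ndufa4 placed there) and 15 of complex V, which gives 78 subunits. A further 7 are the complex I assembly factors Ndufaf1 to Ndufaf7, and 4 share the names without being subunits of the enzyme: Cox7a2l, Atp5s, Atp5sl and Atp5c1-ps. The genes left out by the filter were Cox4i2, well above background on 0 arrays, and Cox7b2 and Cox8c, each on 1 array.

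The respiratory chain sits in the inner mitochondrial membrane, where complex I takes electrons from NADH and complex II takes them from succinate, complex III passes them from ubiquinol to cytochrome c, and complex IV hands them to oxygen. Complexes I, III and IV pump protons as they do so, and the ATP synthase, complex V, makes ATP from the returning flow. Hepatocytes are rich in mitochondria and burn fatty acids through this chain, and most of its subunits are encoded in the nucleus, while a core set is encoded in mitochondrial DNA.

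A group of short sequences shows what was read and where transcription of these genes begins. The first pair are the 60-base probes of Atp5g1 (chr11:95934924-95934983, minus strand, mm9) and of Atp5g2 (chr15:102495586-102495645, minus strand, mm9), shown because these paralogs, with Atp5g3, encode the same ring subunit of the ATP synthase and share coding sequence. The Atp5g2 probe printed is the second, dimmer one; the Atp5g2 levels given further on come from another probe, to which this likeness does not apply. Capitals mark bases that are identical in the best ungapped alignment, 34 of 46 aligned bases or 73.9%.
Atp5g1: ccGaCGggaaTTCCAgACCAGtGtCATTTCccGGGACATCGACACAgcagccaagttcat
Atp5g2: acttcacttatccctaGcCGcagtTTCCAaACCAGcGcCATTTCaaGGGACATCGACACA
The Cox7a1 probe (chr7:30970337-30970948, plus strand, mm9) and the Ndufaf5 probe (chr2:140019333-140028614, plus strand, mm9) are shown because both genes are discussed below on the strength of 1 probe each. Each spans more genomic bases than its length, 612 for Cox7a1 and 9282 for Ndufaf5, and each is open in at least 1 forward reading frame.
Cox7a1: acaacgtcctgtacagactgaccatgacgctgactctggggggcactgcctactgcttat
Ndufaf5: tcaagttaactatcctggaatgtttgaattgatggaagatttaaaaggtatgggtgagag

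The 250 bases upstream of the RefSeq start site (GRCm38.p6) were searched on both strands for motifs of 4 regulators of mitochondrial genes: GCGCA, any base, then GCGC for NRF1, CCGGAAG for GABPA, AAGATGGCG for YY1 and TCAAGGTCA for the estrogen-related receptors. RefSeq windows were matched for 75 of the 89 members (81 windows). The NRF1 motif was present in 18.5% of member windows, against 3.74% of all 32851 windows of the same length, and the GABPA motif in 16.0%, against 6.91%. The YY1 motif was found in 2 member windows (2.47%), against 0.606% of all windows. The estrogen-related receptor motif was found in 1 (1.23%), against 0.387%. These counts are too small to compare the shares. The 2 windows printed are those of Cox7c (chr13:86046796-86047045, minus strand), the single subunit whose level passed the test, in which none of these letters occurs, and of Sdha (chr13:74350241-74350490, minus strand), which holds the NRF1 motif at 3 places, in capitals.
Cox7c: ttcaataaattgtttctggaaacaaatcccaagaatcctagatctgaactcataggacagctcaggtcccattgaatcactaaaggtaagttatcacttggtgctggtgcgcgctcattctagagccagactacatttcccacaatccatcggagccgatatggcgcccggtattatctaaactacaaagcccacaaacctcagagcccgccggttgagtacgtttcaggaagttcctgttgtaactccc
Sdha: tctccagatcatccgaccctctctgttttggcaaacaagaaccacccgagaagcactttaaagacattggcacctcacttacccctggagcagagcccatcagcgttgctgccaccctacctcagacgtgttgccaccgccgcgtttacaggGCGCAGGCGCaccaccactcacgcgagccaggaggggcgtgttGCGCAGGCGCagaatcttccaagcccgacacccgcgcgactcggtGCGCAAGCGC

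The study divided 24 male C57bl/6J mice, 16 weeks old at sampling by the labels, among 3 diets fed for 12 weeks, and 3 liver RNA samples of each diet were hybridised to 1-colour Agilent arrays. HFD+APS livers came from mice on a high-fat diet (60 kcal% fat) with 40 g APS mixed into each kg, HFD livers from mice on that diet alone, and chow livers from mice on chow; APS is the polysaccharide fraction of the Astragalus plant. All mice were of one strain and sex, and the labels do not say whether each array holds the RNA of 1 mouse, so p-values measure the spread between these samples. Slide 3 carried HFD+APS replicates 2 and 3, slide 2 carried HFD+APS replicate 1 with all HFD samples, and slide 1 held chow samples alone, so for any comparison with chow slide and diet cannot be told apart. Slide 2 arrays had 50.4% to 54.1% of probes well above background and a negative-control signal of 64.5 to 70.9, while arrays of slides 1 and 3 had 61.5% to 68.4% and 44.7 to 50.2. HFD+APS and HFD livers are thus split by slide too, except for HFD+APS replicate 1, and the part of this in the results was not tested. No spot was saturated; precision is limited by there being 3 arrays a group. The 10 hepatocyte markers were all detected, with a summed level between 1920 and 2380 times the array's 75th percentile in HFD+APS livers, 1740 to 2190 in HFD livers and 2090 to 2290 in chow livers.

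HFD replicate 3 stood apart for these genes. It was the lowest of the 9 livers in 48 of 89 members (53.9%), against 18.5% of all features, and the lowest HFD liver in 78 of 89 (87.6%), against 44.5% of all features. The median deviation of the 89 members from their means was -0.072, 0.028 and 0.001 log2 in HFD+APS livers, 0.141, 0.055 and -0.188 in HFD livers, and -0.026, 0.089 and -0.013 in chow livers. Over all features the deviation of HFD replicate 3 was -0.049. That liver also had the highest neutrophil marker score, 2.979, against -1.135 to 0.48 in the other 8; 4 of 7 neutrophil markers were detected, each of the 7 was well above background on at least 1 array, and their summed level was 2.91 to 8.88 in HFD+APS livers, 4.66 to 49.9 in HFD livers and 1.5 to 6.69 in chow livers. The neutrophil markers did not all agree. S100a8, S100a9, Retnlg and Cxcr2 were highest in HFD replicate 3. Mpo and Ngp were highest in chow replicate 3, at -2.08 and -3.6, with -2.61 and -4.11 in HFD replicate 3. Camp was highest in chow replicate 1, at -3.21, with -4.02 in HFD replicate 3. The hepatocyte marker score of HFD replicate 3 was the lowest, -0.263. Summed markers of other liver cells also differed between groups, and against chow livers slide and diet cannot be told apart. Summed Kupffer cell and macrophage markers (10 of 10 detected) stood at 57.9 to 124 in HFD+APS livers, 74.3 to 113 in HFD livers and 42.7 to 68.9 in chow livers. Summed endothelial markers (7 of 7) stood at 59.6 to 68.7 in HFD+APS livers, 55.5 to 65.9 in HFD livers and 28.3 to 46 in chow livers. Summed stellate cell markers (8 of 8) stood at 111 to 129 in HFD+APS livers, 116 to 138 in HFD livers and 68.7 to 123 in chow livers. In HFD against chow livers 0 of 10 macrophage markers passed the test (limma, adjusted p under 0.05), against 10.9% of all features, and Marco differed by -0.56. There 2 of 7 endothelial markers rose (Clec4g and Oit3) and 2 of 8 stellate cell markers (Col1a1 and Col3a1), against 4.55% of all features. None of the 3 lists had a marker past the test in HFD+APS against HFD or chow livers, where 1.5% and 3.47% of all features passed. Chow replicate 2 had the lowest score of the 9 for each list, -1.287 for macrophages, -0.775 for endothelial cells and -0.783 for stellate cells. The part of any of these in the levels of respiratory chain genes was not tested, and in bulk liver fewer cells of a type and less RNA per cell cannot be told apart. Differences from or of the HFD group are therefore also given without this liver, as medians of members and for most members named below. For the called genes of the other lists, the calls kept without it are named.

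**Figure D1:**
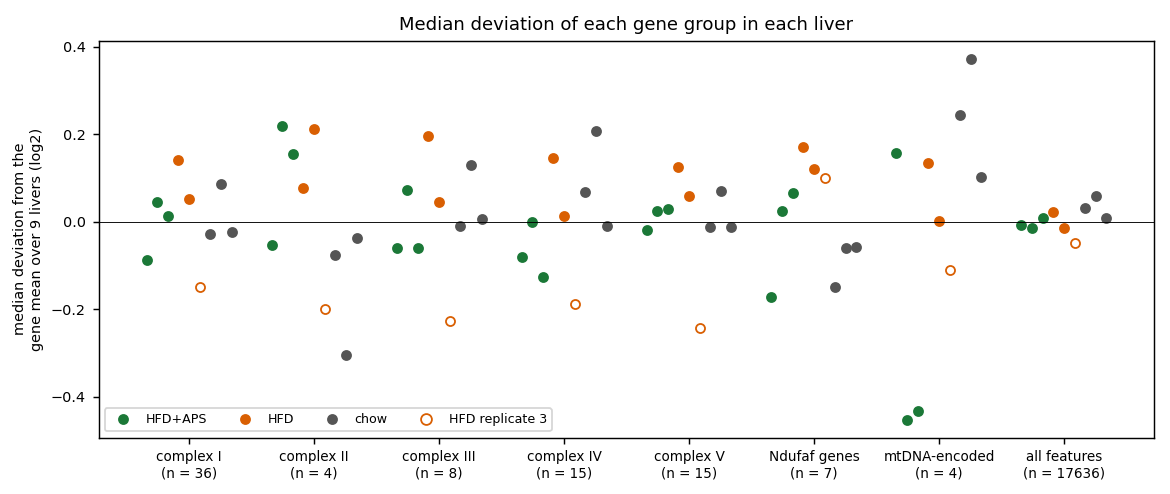
Median deviation (log2, vertical axis) of each complex, the Ndufaf genes, 4 transcripts encoded in mitochondrial DNA and all features in each liver, with each gene centred on its mean over 9 livers. Each point is 1 liver, in the order HFD+APS, HFD and chow; HFD replicate 3, open, is the lowest liver for complexes I, III, IV and V, at -0.149, -0.226, -0.187 and -0.243.

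The comparison of HFD with chow livers asks how the fatty diet bears on the transcripts of the chain, that of HFD+APS with HFD livers what APS adds, and that of HFD+APS with chow livers where the combined diets stand. In HFD against chow livers 1 of 89 members passed the test (limma, adjusted p under 0.05), while 10.9% of all features passed. It was Cox7c, which fell; 0 members rose, against 4.55% of all features that rose and 6.38% that fell. An unadjusted p under 0.05 was found for 5 members, against 31.4% of all features. APS on top of the high-fat diet, set against HFD livers, had 0 of 89 members past the test, against 1.5% of all features (0.476% higher and 1.03% lower), and 4 had an unadjusted p under 0.05, against 17.9% of all features. The comparison of HFD+APS with chow livers had 1 member past the test, against 3.47% of all features: Cox7c fell, against 2.51% of all features, and 0 members rose, against 0.958%. There 9 members had an unadjusted p under 0.05, against 25.2% of all features.

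Differences were small as well as uncalled. The median member difference was -0.0044 log2 in HFD against chow livers, beside -0.039 for all features; -0.0205 in HFD+APS against HFD livers, beside 0.0005; and -0.026 in HFD+APS against chow livers, beside -0.0322. Without HFD replicate 3 the first was 0.085, so its sign turned, and the second was -0.107. On slide 2, which holds HFD+APS replicate 1 and the HFD livers, the median was -0.0781. That value sets 1 HFD+APS array against 3 HFD arrays, with the spread of the lone array assumed to be like that of the other groups, so its tests carry little weight. With each array centred on its median in place of its 75th percentile, the median of members was 0.0531 beside 0.0185 for all features in HFD against chow livers, 0.0604 beside 0.0814 in HFD+APS against HFD livers and 0.1123 beside 0.1062 in HFD+APS against chow livers, so small shifts of a complex are read relative to all features. The 95% interval of the difference lay within 1.5-fold either way for 75 of 89 members in HFD against chow livers (38.6% of all features), for 81 in HFD+APS against HFD livers (46.4%) and for 73 in HFD+APS against chow livers (41.7%). Groups did not overlap for 8 members in HFD against chow livers (38.9% of all features), for 10 in HFD+APS against HFD livers (24.5%) and for 22 in HFD+APS against chow livers (30.9%). HFD+APS and HFD livers are set against the same chow livers, and HFD livers enter 2 of the comparisons, so the comparisons are not independent. Within groups the median SD of a member was 0.0907 in HFD+APS livers, 0.1796 in HFD livers and 0.0948 in chow livers, beside 0.1858, 0.1786 and 0.1733 for all features.

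**Figure D2:**
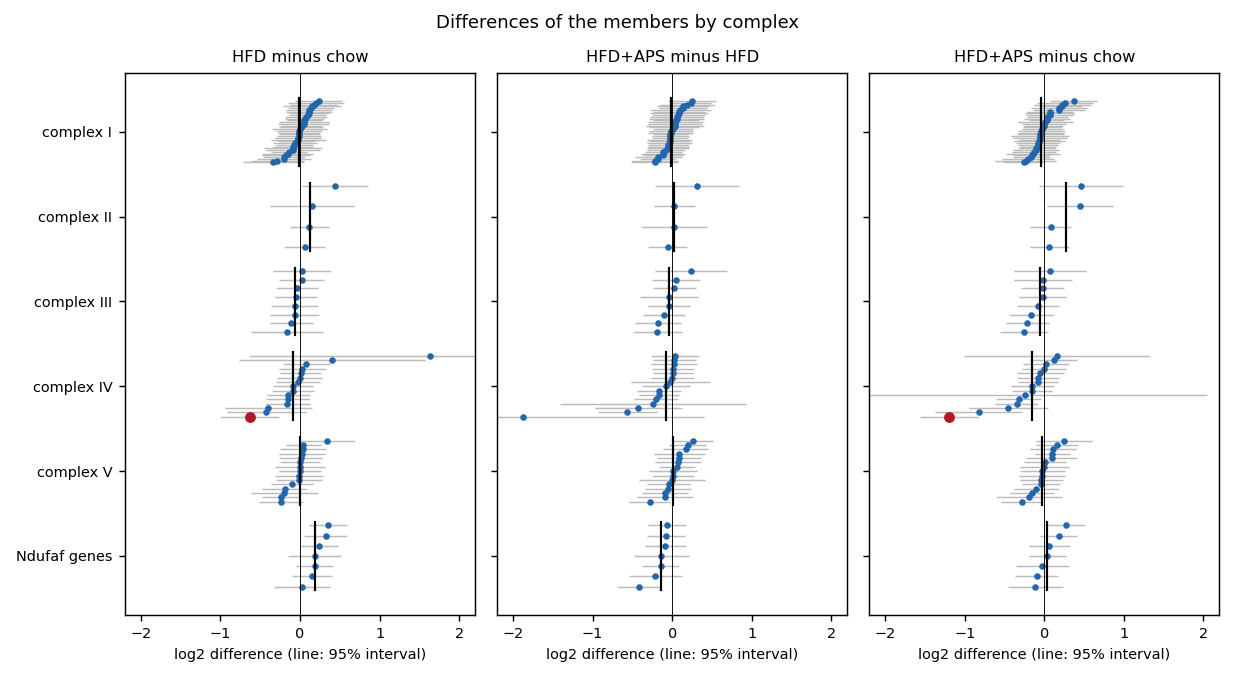
Log2 difference (horizontal axis) of every subunit and of the 7 Ndufaf genes in the 3 comparisons, with grey lines for 95% intervals and black bars for the median of each group. Red points passed the test, Cox7c alone in HFD minus chow and in HFD+APS minus chow; the interval of Cox6a2 in complex IV runs off the axis.

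Complex I, the NADH dehydrogenase, had none of its 36 subunits pass the test in any comparison. Their median difference was -0.0122 log2 in HFD against chow livers, -0.0187 in HFD+APS against HFD livers and -0.0404 in HFD+APS against chow livers; without HFD replicate 3 the first was 0.0815 and the second -0.0947. Ndufs1, the large iron-sulfur subunit of the electron-carrying arm, stood at 5.38, 5.67 and 5.62 in HFD+APS livers, 5.65, 5.67 and 5.18 in HFD livers, and 5.34, 5.30 and 5.25 in chow livers (log2 levels, with the array's 75th percentile at 0). All HFD+APS livers were above all chow livers, and the difference was 0.26 ± 0.15 (SE, adjusted p = 0.335). Ndufv1, which binds the NADH, stood at 6.04, 6.14 and 6.15 in HFD+APS livers, 6.16, 6.10 and 5.64 in HFD livers and 5.89, 5.95 and 5.93 in chow livers. The difference of HFD+APS from chow livers was 0.18 ± 0.14 (adjusted p = 0.457), again with no overlap, and HFD replicate 3 was the lowest of 9.

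Ndufb8, a membrane arm subunit often used as an indicator of assembled complex I, stood at 6.49, 6.70 and 6.61 in HFD+APS livers, 6.76, 6.70 and 6.22 in HFD livers and 6.57, 6.65 and 6.54 in chow livers. The groups overlapped, and the differences lay between -0.02 and 0.04; without HFD replicate 3, Ndufb8 differed by 0.15 in HFD against chow livers and by -0.13 in HFD+APS against HFD livers. The smallest p of the complex in HFD against chow livers belonged to Ndufb6, at 5.41, 5.2 and 4.76 in HFD livers against 5.47, 5.48 and 5.43 in chow livers, a difference of -0.34 ± 0.17 (adjusted p = 0.208). Ndufs3 differed by -0.28 ± 0.14 there (adjusted p = 0.217). Ndufb6 stood at -0.15 and Ndufs3 at -0.13 without HFD replicate 3. Ndufb5 had the smallest p in HFD+APS against chow livers, at 2.35, 2.32 and 2.34 in HFD+APS livers and 2.15, 1.71 and 2.04 in chow livers, a difference of 0.37 ± 0.13 (adjusted p = 0.128). It lay above every HFD liver too (2.27, 2.24 and 2.09), by 0.14 ± 0.13, or 0.08 without HFD replicate 3. The smallest p in HFD+APS against HFD livers belonged to Ndufv2, a flavoprotein subunit, with a difference of 0.23 ± 0.11 (adjusted p = 0.317), followed by Ndufs7 at 0.24 ± 0.13 (adjusted p = 0.366) and Ndufb4 at -0.18 ± 0.10 (adjusted p = 0.391). The values without HFD replicate 3 were 0.16 for Ndufv2, 0.13 for Ndufs7 and -0.24 for Ndufb4. The other Ndufv2 probe had the opposite sign, -0.15, and the mean of the 2 probes gave 0.04. Ndufv3 differed by -0.26 ± 0.12 in HFD+APS against chow livers (adjusted p = 0.209).

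Complex II, succinate dehydrogenase, is shared with the citric acid cycle and is encoded wholly in the nucleus. All 4 subunits had a positive difference in HFD against chow livers and in HFD+APS against chow livers, with medians of 0.1309 and 0.2675 log2, and none passed the test. Single livers moved the first median: it was 0.026 without HFD replicate 2, 0.0802 without chow replicate 2 and 0.2686 without HFD replicate 3. In HFD+APS against HFD livers the median was 0.0212, and -0.0981 without HFD replicate 3. Sdha, the flavoprotein that oxidises succinate, stood at 4.0, 4.44 and 4.32 in HFD+APS livers, 4.38, 4.43 and 3.89 in HFD livers and 3.84, 3.63 and 3.93 in chow livers. HFD+APS and chow livers did not overlap, whereas HFD replicate 3 lay within the chow range. The difference was 0.44 ± 0.18 in HFD against chow livers (adjusted p = 0.144) and 0.45 ± 0.18 in HFD+APS against chow livers (adjusted p = 0.167). Its 3 detected probes did not read the same: their differences in HFD against chow livers ran from -0.53 to 0.44, none of them past the test, and their mean gave 0.0064. In HFD+APS against chow livers they ran from -0.18 to 0.45, and their mean gave 0.19 ± 0.16. The brightest probe differed by 0.61 ± 0.16 in HFD against chow livers without HFD replicate 3 (adjusted p = 0.0768).

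Sdhb, the iron-sulfur subunit, stood at 5.38, 5.85 and 5.72 in HFD+APS livers, 5.46, 5.63 and 4.91 in HFD livers and 5.34, 4.85 and 5.38 in chow livers, a difference of 0.46 ± 0.23 in HFD+APS against chow livers (adjusted p = 0.256). Its groups overlapped in every comparison, and in HFD against chow livers it differed by 0.15, or 0.36 without HFD replicate 3. The median deviation of complex II was -0.054, 0.218 and 0.154 in HFD+APS livers, 0.078, 0.211 and -0.199 in HFD livers, and -0.075, -0.305 and -0.037 in chow livers, so chow replicate 2 was the lowest of 9. The membrane anchors Sdhc and Sdhd differed by 0.06 ± 0.11 and 0.11 ± 0.11 in HFD against chow livers, and by 0.16 and 0.18 without HFD replicate 3.

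Complex III, the cytochrome bc1 complex, had none of its 8 nuclear subunits pass the test in any comparison, with medians of -0.0584 in HFD against chow livers, -0.0411 in HFD+APS against HFD livers and -0.0508 in HFD+APS against chow livers. Without HFD replicate 3 the first was 0.0521 and the second -0.165. Uqcrc2, a core subunit, stood at 6.15, 6.39 and 6.31 in HFD+APS livers, 6.54, 6.45 and 5.98 in HFD livers and 6.30, 6.42 and 6.19 in chow livers. The groups overlapped and no difference exceeded 0.04 in size, but without HFD replicate 3 Uqcrc2 differed by 0.19 in HFD against chow livers and by -0.21 in HFD+APS against HFD livers. Uqcrc1, the other core subunit, stood at 5.92, 6.13 and 5.88 in HFD+APS livers, 6.01, 5.95 and 5.26 in HFD livers and 5.87, 6.02 and 5.81 in chow livers; 5.26, in HFD replicate 3, was its lowest value, and without it HFD livers differed from chow livers by 0.08 in place of -0.16. Uqcrfs1, the Rieske iron-sulfur protein, and Uqcrq, a small subunit, were lower in every HFD+APS liver than in any chow liver, by -0.21 ± 0.12 (adjusted p = 0.295) and -0.25 ± 0.13 (adjusted p = 0.273).

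**Figure D3:**
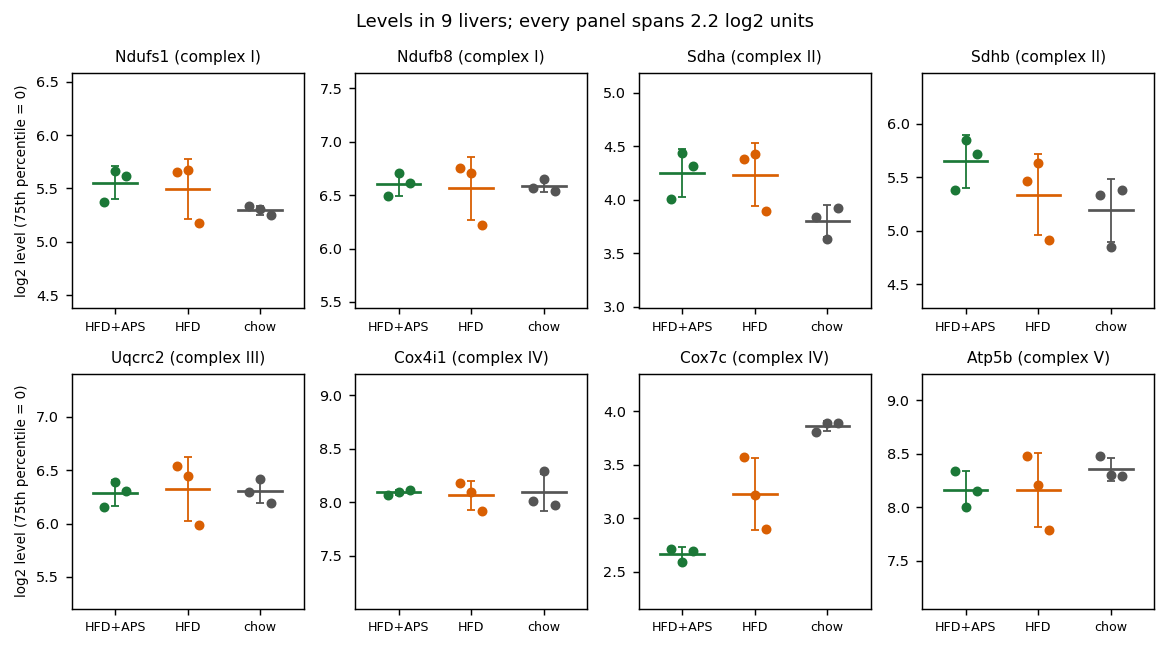
Log2 levels (vertical axis, the array's 75th percentile at 0) of 8 subunits in 3 HFD+APS, 3 HFD and 3 chow livers; points are livers, horizontal lines group means and error bars SDs. Only the Cox7c panel shows 3 groups that do not overlap; HFD replicate 3, the right point of each HFD group, is the lowest HFD liver in all 8.

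Complex IV, cytochrome c oxidase, held the one called gene. Cox7c, a small nuclear subunit present in all tissues, stood at 2.71, 2.59 and 2.69 in HFD+APS livers, 3.57, 3.22 and 2.90 in HFD livers and 3.8, 3.89 and 3.89 in chow livers. The 3 groups did not overlap, with chow livers highest and HFD+APS livers lowest. Cox7c was 2.29-fold lower in HFD+APS than in chow livers (log2 difference -1.20 ± 0.16, 95% interval -1.56 to -0.83, adjusted p = 0.0153). It was 1.55-fold lower in HFD than in chow livers (-0.63 ± 0.16, interval -1.0 to -0.26, adjusted p = 0.0437). HFD+APS livers were 1.48-fold below HFD livers (-0.56 ± 0.16, interval -0.93 to -0.19), which did not pass (adjusted p = 0.132). The last difference was, without HFD replicate 3, -0.73 ± 0.13 (adjusted p = 0.073). Within slide 2, with 1 HFD+APS array, it was -0.52.

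Both Cox7c calls were lost when some single arrays were left out. The HFD against chow call was lost without any 1 of chow replicates 1, 2 and 3, HFD replicates 2 and 3 and HFD+APS replicates 2 and 3, with adjusted p up to 0.122 and a difference of -0.47 ± 0.13 without HFD replicate 3. The HFD+APS against chow call was lost without chow replicate 2 or 3 or HFD+APS replicate 2 or 3 (adjusted p 0.0576 to 0.0781), while its difference stayed between -1.16 and -1.22. Calls over all features fell in the same fits, from 1929 to between 365 and 1552 in HFD against chow livers. In HFD+APS against chow livers they fell from 612 to 23 and 21 without chow replicates 2 and 3. Without HFD+APS replicates 2 and 3 they fell to 46 and 73. A single probe read the gene (genomic span 878 bases, mm9), and its sequence has a stop in each forward reading frame, so it is not wholly coding; transcripts that share this stretch could add to its signal. It is not printed.

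Cox4i1 and Cox5a, also nuclear subunits of complex IV, did not follow Cox7c. Cox4i1, the ubiquitous form of the largest nuclear subunit, stood at 8.07, 8.10 and 8.11 in HFD+APS livers, 8.18, 8.10 and 7.92 in HFD livers and 8.01, 8.29 and 7.98 in chow livers, with differences between -0.03 and 0.03, and of 0.05 (HFD against chow) and -0.05 (HFD+APS against HFD) without HFD replicate 3. Cox5a stood at 7.55, 7.66 and 7.63 in HFD+APS livers, 7.75, 7.66 and 7.38 in HFD livers and 7.68, 7.74 and 7.63 in chow livers; its groups overlapped in every comparison. Of the 15 genes, 12 had a negative difference in HFD+APS against chow livers, with a median of -0.1494 log2, while 54% of all features had a negative difference. Groups did not overlap for 5 of the 15, a share near the 30.9% of all features. The median was -0.0882 in HFD against chow livers and -0.079 in HFD+APS against HFD livers; without HFD replicate 3 they were 0.018 and -0.1633. With each array centred on its median, the complex IV median was -0.011 in HFD+APS against chow livers, beside 0.1062 for all features. It was -0.0308 beside 0.0185 in HFD against chow livers and 0.0019 beside 0.0814 in HFD+APS against HFD livers. Such centring shifts every feature of a comparison alike, so the place of complex IV relative to all features did not change.

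Several complex IV subunits come as pairs with a common form and a form known from heart and skeletal muscle. Cox7a1, a muscle form, stood at 0.76, 1.1 and 0.99 in HFD+APS livers, 1.83, 1.38 and 0.92 in HFD livers and 1.51, 1.76 and 2.05 in chow livers. HFD+APS and chow livers did not overlap (-0.82 ± 0.24, 1.77-fold), and the difference missed the threshold (adjusted p = 0.0887). Cox7a2, the liver form, was also lower in every HFD+APS liver than in any chow liver, at 6.85, 6.87 and 6.78 against 7.16, 7.21 and 7.10 (-0.32 ± 0.12, adjusted p = 0.15). Cox6c, a small ubiquitous subunit, stood at 7.07, 6.90 and 6.99 in HFD+APS livers against 7.26, 7.39 and 7.35 in chow livers, a difference of -0.35 ± 0.12 (adjusted p = 0.124).

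Cox6a2, the muscle form of subunit 6a, varied with 1 liver. It stood at -2.88, -4.60 and -4.70 in HFD+APS livers, -3.62, -3.27 and 0.34 in HFD livers and -3.54, -3.64 and -4.28 in chow livers, and was well above background on 5 of 9 arrays. HFD replicate 3 was far above the other 8, and no difference passed (adjusted p = 0.297 in HFD against chow livers and 0.361 in HFD+APS against HFD livers). Without HFD replicate 3 the difference of HFD from chow livers was 0.37 and that of HFD+APS from HFD livers -0.61. Of 8 skeletal muscle markers 2 passed the signal filter and 3, Acta1, Ckm and Pvalb, were well above background on no array; their summed level was 0.474 to 0.692 in HFD+APS livers, 0.482 to 0.53 in HFD livers and 0.467 to 0.543 in chow livers. Acta1 and Pvalb had their highest values in HFD replicate 3, -4.2 and -4.82, below what the array separates from background. The other markers did not follow them. Ckm was highest in HFD replicate 1, at -5.35. Of the 2 that passed the filter, Mylpf was lowest of the 9 livers in HFD replicate 3, at -3.08. Tnni2 was highest in HFD+APS replicate 1, at -2.12, with -2.29 in HFD replicate 3. Summed brown and white adipocyte markers (4 of 9 detected; Adrb3, Ucp1 and Lep well above background on no array) stood at 15.6 to 32.7 in HFD+APS livers, 29.7 to 105 in HFD livers and 48.6 to 56.2 in chow livers, and their score was highest in HFD replicates 3 and 1, at 2.583 and 2.481. These markers did not agree: in HFD against chow livers Cidea passed the test with a difference of 7.2484 and Elovl3 with -2.0056. Single markers carried much of the sum, Elovl3 at 5.21 to 5.72 in chow livers and Cidea at 6.1 in HFD replicate 1. Adipoq and Plin1, each well above background on 1 array, were highest in chow replicate 1, at -1.02 and -3.66. They stood at -5.32 and -5.7 in HFD replicate 3. The part of other tissue in the Cox6a2 level was not tested. The common form Cox6a1 differed by -0.17 ± 0.11 in HFD+APS against HFD livers (adjusted p = 0.461), or -0.25 without HFD replicate 3. Cox6b2, known from testis, differed by -0.43 ± 0.22 in HFD against chow livers (adjusted p = 0.215), while the common Cox6b1 differed by 0.03 ± 0.13; without HFD replicate 3 these were -0.46 and 0.11. Cox8b, a muscle form well above background on 7 arrays, ranged from -4.44 to -2.11 within chow livers alone, and Cox8a, the common form, differed by no more than 0.02 in size, or 0.09 without HFD replicate 3. Ndufa4, first assigned to complex I and now placed in complex IV, differed by -0.15 ± 0.12 in HFD+APS against chow livers.

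**Figure D4:**
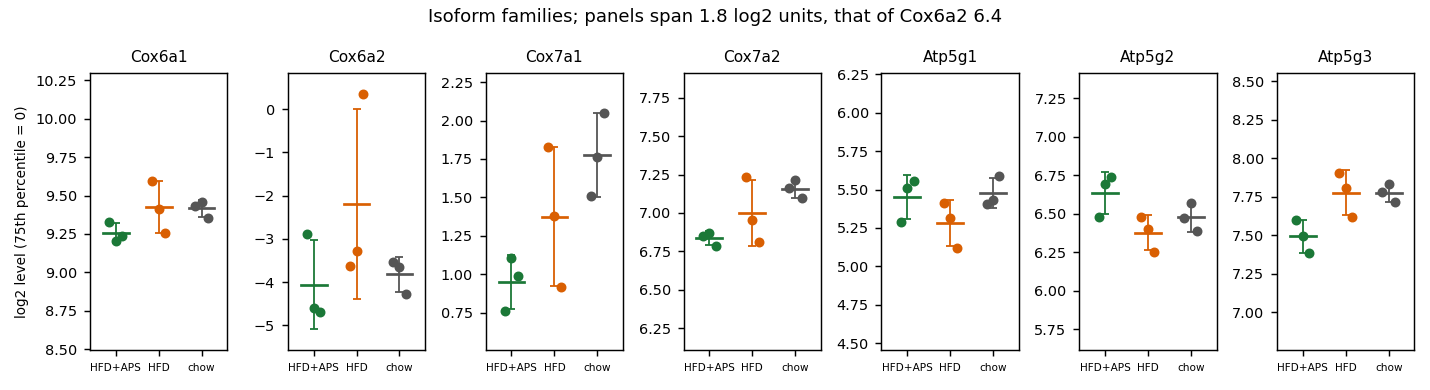
Log2 levels (vertical axis) of genes of 3 isoform families in HFD+APS, HFD and chow livers, with points for livers, lines for means and error bars for SDs; levels of different probes are not comparable. Cox7a1 and Cox7a2 lie lower in every HFD+APS than in any chow liver, Cox6a2 is high at 0.34 in HFD replicate 3, and Atp5g3 lies below both other groups in HFD+APS livers.

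Complex V, the ATP synthase, had none of its 15 subunits pass the test, with medians of -0.003 log2 in HFD against chow livers, 0.0129 in HFD+APS against HFD livers and -0.0259 in HFD+APS against chow livers. Without HFD replicate 3 the first was 0.0791 and the second -0.0864. Atp5a1, the alpha subunit of the catalytic head, stood at 7.39, 7.41 and 7.35 in HFD+APS livers, 7.56, 7.54 and 7.21 in HFD livers and 7.49, 7.48 and 7.26 in chow livers. Atp5b, the catalytic beta subunit, stood at 8.34, 8.0 and 8.15 in HFD+APS livers, 8.48, 8.21 and 7.79 in HFD livers and 8.48, 8.30 and 8.29 in chow livers. Both overlapped in every comparison.

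The paralogs of the rotating ring differed in sign. Atp5g3 stood at 7.60, 7.5 and 7.38 in HFD+APS livers, 7.91, 7.80 and 7.62 in HFD livers and 7.78, 7.83 and 7.72 in chow livers, a difference of -0.28 ± 0.11 from HFD (adjusted p = 0.229) and of -0.28 ± 0.11 from chow livers (adjusted p = 0.16). Atp5g2 stood at 6.48, 6.69 and 6.74 in HFD+APS livers, 6.48, 6.4 and 6.25 in HFD livers and 6.47, 6.57 and 6.38 in chow livers, a difference of 0.26 ± 0.11 from HFD livers (adjusted p = 0.288). Atp5g1 differed by 0.17 ± 0.12 from HFD livers (adjusted p = 0.501). Differences from HFD livers without HFD replicate 3 were -0.36 for Atp5g3, 0.19 for Atp5g2 and 0.09 for Atp5g1. HFD+APS livers lay wholly below HFD livers for Atp5g3 alone of these, and no test passed; whether the paralogs differ from each other was not tested. The second Atp5g2 probe, printed above, gave 0.07 in place of 0.26. In HFD against chow livers the smallest p belonged to Atp5h, a stalk subunit, at -0.23 ± 0.10 (adjusted p = 0.164), Atp5e, the small epsilon subunit, at 0.34 ± 0.15 (adjusted p = 0.169), and Atp5o, a stalk subunit, at -0.24 ± 0.12 (adjusted p = 0.211). Leaving out HFD replicate 3 gave -0.15 for Atp5h, 0.45 for Atp5e and -0.12 for Atp5o.

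Atp5f1, a stalk subunit, was read differently by its probes. The brightest probe differed by -0.01 ± 0.13 in HFD against chow livers, or 0.14 without HFD replicate 3. Another, at chr3:105761646-105761705 (mm9), stood at -2.23, -2.16 and -2.21 in HFD+APS livers, -2.89, -2.83 and -3.27 in HFD livers and -1.92, -2.14 and -2.26 in chow livers. Fitted with every probe as its own feature, it was lower in HFD than in chow livers (-0.89 ± 0.15, adjusted p = 0.0142) and higher in HFD+APS than in HFD livers (0.80 ± 0.15, adjusted p = 0.0461). It was the single member probe past the test in that last comparison, and its call there was lost without HFD replicate 3, a check added after the data were seen (0.66 ± 0.13, adjusted p = 0.0885); that in HFD against chow livers was kept (-0.76 ± 0.13, adjusted p = 0.0324). Which transcript it reads was not tested.

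The 7 Ndufaf genes, whose products put complex I together without staying in it, had a positive difference in HFD against chow livers in 7 of 7 cases, with a median of 0.1853 log2, and a negative one in HFD+APS against HFD livers in 7 of 7, with a median of -0.1342; over all features 45.9% of differences were positive in the first and 49.9% negative in the second. Without HFD replicate 3 the medians were 0.2451 and -0.1414. Without HFD+APS replicate 1 the second was -0.0339. None passed the test, and 4 of 7 did not overlap in HFD against chow livers, against 38.9% of all features. The 2 comparisons share the HFD livers, so the opposite signs are not independent. HFD replicate 3 was not low for this group: its median deviation was 0.1, with 0.17 and 0.121 in the other HFD livers. Values were -0.171, 0.025 and 0.065 in HFD+APS livers and -0.15, -0.06 and -0.057 in chow livers.

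Ndufaf7, a methyltransferase that modifies a complex I subunit, stood at 2.17, 2.42 and 2.29 in HFD+APS livers, 2.40, 2.33 and 2.38 in HFD livers and 1.99, 1.94 and 2.12 in chow livers. It was higher in every liver of both high-fat groups than in any chow liver, by 0.35 ± 0.10 in HFD livers (adjusted p = 0.0618, and 0.133 without HFD replicate 3). Ndufaf5, which hydroxylates a complex I subunit, stood at -1.29, -1.31 and -1.26 in HFD+APS livers, -0.88, -0.88 and -0.85 in HFD livers and -1.33, -1.30 and -0.94 in chow livers. HFD livers lay above every other liver, by 0.32 ± 0.12 from chow (adjusted p = 0.112), and HFD+APS livers differed from HFD livers by -0.42 ± 0.12 (adjusted p = 0.131); without HFD replicate 3 these were 0.31 and -0.41. Ndufaf2 and Ndufaf3 did not overlap between HFD and chow livers either, at 0.18 ± 0.10 and 0.24 ± 0.10, or 0.18 and 0.25 without HFD replicate 3.

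Assembly genes with other names gave called members. Of 9 complex I assembly genes outside the Nduf names, 3 rose in HFD against chow livers, with 0 lower and a median of 0.4033 log2, against 4.55% of all features that rose and 6.38% that fell. Nubpl, which delivers iron-sulfur clusters to complex I, stood at 1.69, 2.05 and 1.92 in HFD+APS livers, 2.21, 2.25 and 2.0 in HFD livers and 1.40, 1.08 and 1.39 in chow livers. It was higher in HFD than in chow livers by 0.86 ± 0.14 (adjusted p = 0.0141), called without any 1 array (adjusted p 0.0104 to 0.0499), but 0.30 ± 0.17 by the mean of its probes (adjusted p = 0.271). Tmem70, which also serves the ATP synthase, rose by 0.56 ± 0.13 (adjusted p = 0.0323), at 3.38, 3.44 and 3.21 in HFD livers against 2.87, 2.65 and 2.85 in chow livers. Dmac1, an assembly factor of the distal membrane arm, rose by 0.53 ± 0.13 (adjusted p = 0.0417). The calls of Tmem70 and Dmac1 were lost under leave-one-out, with adjusted p up to 0.101 and 0.124.

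Of 30 assembly genes of complexes II to V, 3 rose in HFD against chow livers and 0 fell, with a median of 0.1432. Over all features 4.55% rose and 6.38% fell. Called either way, 3 of 30 is near the 10.9% of all features. Atpif1, which encodes the inhibitor that stops the ATP synthase from running backwards, stood at 4.49, 4.99 and 4.87 in HFD+APS livers, 4.99, 5.10 and 5.18 in HFD livers and 4.42, 4.14 and 4.42 in chow livers. It was higher in HFD than in chow livers by 0.77 ± 0.15 (adjusted p = 0.0238). Sdhaf4, an assembly factor of complex II, rose by 0.47 ± 0.10 (adjusted p = 0.0272), at 3.07, 3.22 and 3.17 in HFD livers against 2.66, 2.65 and 2.74 in chow livers. Atpaf1, an assembly factor of the catalytic head, rose by 0.63 ± 0.12 in HFD against chow livers (adjusted p = 0.0215) and by 0.58 ± 0.12 in HFD+APS against chow livers (adjusted p = 0.0445), but its probes disagreed, and their mean gave -0.21 ± 0.14 in HFD against chow livers. The calls of Atpif1, Sdhaf4 and Atpaf1 in HFD against chow livers were each lost without some 1 array, with adjusted p up to 0.079, 0.0843 and 0.0688; that of Atpaf1 in HFD+APS against chow livers reached 0.143. Between HFD+APS and HFD livers 0 genes of either assembly list passed, against 1.5% of all features. There Nubpl differed by -0.27 ± 0.14 and Atpif1 by -0.31 ± 0.15, or -0.34 and -0.26 without HFD replicate 3. Against chow livers, Atpaf1 in HFD+APS livers was the single call of the 2 lists, against 0.958% of all features that rose.

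**Figure D5:**
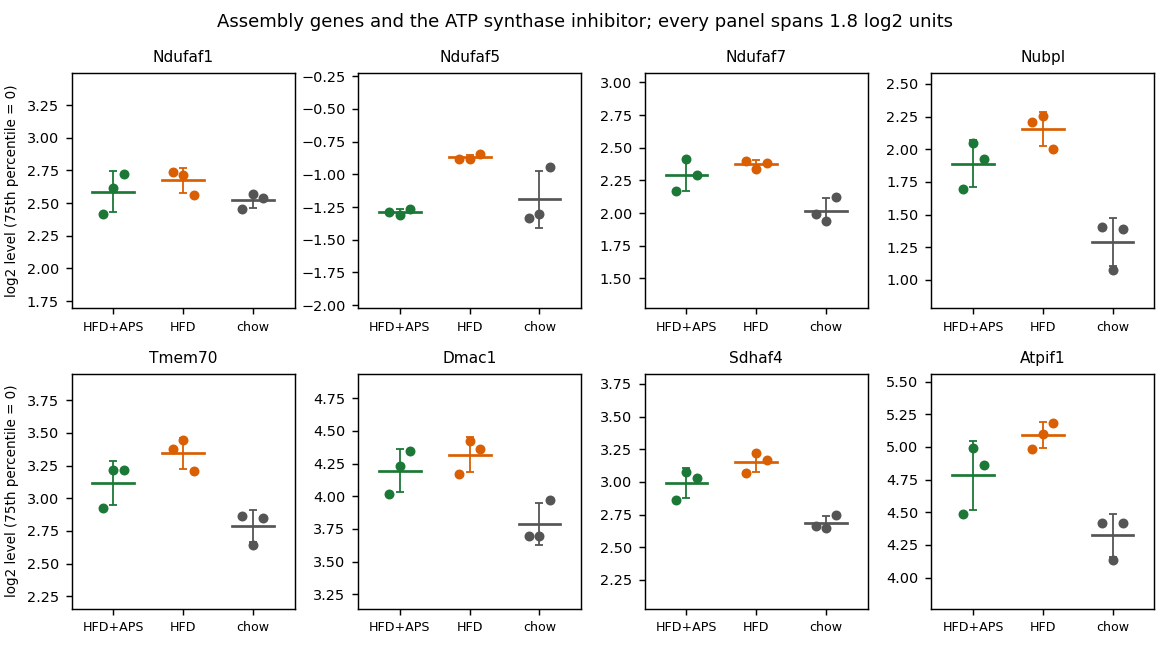
Log2 levels (vertical axis) of 3 Ndufaf genes, of the assembly genes Nubpl, Tmem70, Dmac1 and Sdhaf4, and of Atpif1, in HFD+APS, HFD and chow livers; points are livers, lines means and error bars SDs. Every HFD liver lies above every chow liver in all panels except that of Ndufaf1, a gene with a difference of 0.15 ± 0.11.

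The remaining members carry the family names without being subunits. Atp5s, the factor B protein linked to the ATP synthase, stood at 1.24, 1.33 and 1.22 in HFD+APS livers, 1.07, 0.90 and 1.04 in HFD livers and 0.99, 0.81 and 0.81 in chow livers. HFD+APS livers lay above all others, by 0.39 ± 0.10 from chow (adjusted p = 0.0659) and 0.26 ± 0.10 from HFD livers (adjusted p = 0.224, and 0.312 without HFD replicate 3). Cox7a2l, which joins complexes III and IV into supercomplexes, differed by no more than 0.04 in size. Atp5sl differed by 0.24 ± 0.16 from HFD livers (adjusted p = 0.453), and the pseudogene Atp5c1-ps by -0.02 ± 0.15; without HFD replicate 3 these were 0.14 and -0.16.

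Lists of the surrounding pathway had 0 calls in HFD+APS against HFD livers throughout, where 1.5% of all features passed. The share of all features that passed was 10.9% in HFD against chow livers and 3.47% in HFD+APS against chow livers. Of 10 genes for cytochrome c, cytochrome c1 and other carriers of electrons, nucleotides and phosphate, 0 passed in any comparison; Slc25a4, an ADP/ATP carrier, had the smallest p in HFD+APS against HFD livers, at 2.98, 2.45 and 2.39 against 3.26, 3.07 and 3.18 (-0.56 ± 0.18, adjusted p = 0.158). Its difference was -0.19 within slide 2. Without HFD+APS replicate 1 it was -0.75 (adjusted p = 0.0391), but slide 3 is then set against slide 2, so slide and APS cannot be told apart. Of 21 biogenesis regulators 1 rose and 3 fell in HFD against chow livers, beside 4.55% and 6.38% of all features. Mterf2, a mitochondrial transcription factor, rose by 1.26 ± 0.21 (adjusted p = 0.0147). Pprc1, a relative of PGC-1alpha, differed by -0.47 ± 0.09 (adjusted p = 0.0206), Nrf1, the factor whose motif was searched above, by -0.66 ± 0.15 (adjusted p = 0.0334) and Polrmt, the mitochondrial RNA polymerase, by -0.43 ± 0.11 (adjusted p = 0.0441). Among HFD+APS against chow livers 2 rose, Mterf2 at 1.25 ± 0.21 (adjusted p = 0.0278) and Esrrg at 0.97 ± 0.20 (adjusted p = 0.0436), and Pprc1 fell by 0.76 ± 0.09 (adjusted p = 0.0125), beside 0.958% of all features that rose and 2.51% that fell. Each of these 7 calls was lost without at least 1 array, and Esrrg differed by 0.03 by the mean of its probes (adjusted p = 0.88).

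The counts of the other lists in HFD against chow livers were at most 1 gene higher and 1 lower a list, beside 4.55% of all features higher and 6.38% lower, and show nothing particular to a list. Of 24 import genes 1 rose (Tomm5, 0.37 ± 0.08, adjusted p = 0.0332) and 1 fell (Timm9, -0.55 ± 0.14, adjusted p = 0.0417). Of 18 citric acid cycle genes, Suclg2, a subunit of succinyl-CoA ligase, rose by 0.82 ± 0.13 (adjusted p = 0.012) and stayed called without any 1 array. Of 13 coenzyme Q genes Coq4 rose by 0.51 ± 0.10 (adjusted p = 0.0223). Of 8 uncoupling and antioxidant genes Ucp2, an inner membrane carrier, rose by 1.43 ± 0.32 (adjusted p = 0.0313). None of 13 dynamics and mitophagy genes passed. For HFD+APS against chow livers these 5 lists had 0 calls, against 3.47% of all features. The calls of Tomm5, Timm9, Coq4 and Ucp2 were each lost without at least 1 array, with adjusted p up to 0.0923, 0.124, 0.0647 and 0.0936; Timm9 also missed by the mean of its probes (adjusted p = 0.198). Of the 15 calls in HFD against chow livers over the pathway and assembly lists, 4 were kept without HFD replicate 3: Nubpl, Mterf2, Nrf1 and Suclg2. The number of calls over all features fell too without that liver, from 1929 to 726.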

How the data were processed

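Liver RNA was read on 9 1-colour Agilent arrays. Per the file headers, the scanner's Feature Extraction 10.7.1.1 software made the deposited intensity values, background-subtracted and detrended within each array; the deposited log2 table, of which centring and scaling are not stated, correlates with them at 0.9969 or above and was an alternative. Coordinates are mm9, per the file headers. Control spots were dropped, log2 of the processed intensity was set against the array's 75th percentile, and probes well above background on at least 3 arrays were kept. Each gene took its brightest probe. Symbols came from RefSeq where an accession or name matched. limma 3.58.1 (R 4.3.3) fitted the 9 arrays in 1 model (6 residual and 2.2 prior degrees of freedom) with Benjamini-Hochberg adjustment over 17636 features; adjusted p under 0.05 is called passing. The procedure was tested on simulated data. Named genes are called members, the 3 smallest p of each complex and comparison, a fixed set of subunits, isoform families, and called genes of the other lists. The Ndufaf genes, Atp5s and second probes were named after their values were seen. The members and lists were chosen with earlier results of these data known. Alternatives covered scaling, background, filters, probe choice, slide, array weights and leaving out each array.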

Additional observations from a re-analysis of the deposited data

How the results depend on the processing

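The count of members past the test in HFD against chow livers was 1 as reported, and 0 with each array centred on its median, with no filter on dim probes, with slide as a random block, with the replicate block or with only the arrays compared. It was 2 with normexp and quantile normalization (Atp5e, Cox7c), with the stricter filter of a clear signal on each of the 9 arrays (Cox7c, Ndufaf7) and with every probe its own feature (Atp5f1, Cox7c), and 4 with array weights; leaving out single arrays gave 0 to 2. In HFD+APS against HFD livers the count of 0 became 1 with every probe its own feature (Atp5f1) and 3 with array weights (Atp5g3, Cox7c, Ndufaf5), and stayed 0 with single arrays left out. For HFD+APS against chow livers it was 3 with normexp, 2 with the stricter filter and 13 with array weights, against 1, and 0 to 1 with single arrays left out. Array weights raised calls over all features too, to 3835 in HFD against chow livers (1929 without weights), 2050 in HFD+APS against HFD livers (265) and 4938 in HFD+APS against chow livers (612). Leaving out single arrays gave 365 to 2711 calls over all features in HFD against chow livers. It gave 51 to 578 in HFD+APS against HFD livers and 21 to 1607 in HFD+APS against chow livers. The median difference in HFD+APS against chow livers was 0.1123 with median centring, beside 0.1062 for all features. The median differences ranged over leave-one-out from -0.0691 to 0.085 in HFD against chow livers, from -0.107 to 0.0461 in HFD+APS against HFD livers and from -0.0497 to 0.0081 in HFD+APS against chow livers. The replicate numbers did not pair the samples (correlations of same-numbered deviations -0.175 to 0.164, 4 of 9 arrays closest to their own number); with the replicate block Cox7c in HFD against chow livers had adjusted p = 0.0689. Atpaf1 in HFD against chow livers gave -0.21 by the mean of its probes, against 0.63. The causes were not tested. With 3 arrays a group, the median 95% half-interval of a member was 0.286 log2, which is a typical precision and not a limit of detection.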

Other observations

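Transcripts encoded in mitochondrial DNA have probes for ATP6, CYTB, COX2 and ND4, a list added after the data were seen; the ATP6 and COX2 probes carry coordinates of a nuclear copy, so what they read is uncertain. Their median deviation was 0.156, -0.452 and -0.433 log2 in HFD+APS livers, 0.133, 0.001 and -0.11 in HFD livers and 0.244, 0.372 and 0.103 in chow livers. HFD+APS replicates 2 and 3, which share slide 3, were the lowest of the 9. ND4, a complex I subunit, stood at 7.89, 7.12 and 7.23 in HFD+APS livers, 7.81, 7.71 and 7.63 in HFD livers and 8.02, 8.15 and 7.96 in chow livers. None of the 4 passed the test; ND4 differed by -0.63 ± 0.19 in HFD+APS against chow livers (limma, adjusted p = 0.0985), and by -0.87 (adjusted p = 0.00699) without HFD+APS replicate 1. On slide 2, HFD+APS replicate 1 differed from the HFD livers by 0.17 for ND4 and 0.11 for COX2, against -0.31 and -0.34 over all arrays. The part of the slide in this was not tested.

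A second probe of Ndufs4, a complex I subunit, stood at -0.61 in HFD+APS replicate 1, against -4.18 and -3.90 in the other HFD+APS livers, -4.06 to -3.67 in HFD livers and -3.99 to -3.67 in chow livers, while the brightest Ndufs4 probe lay between 4.85 and 5.18 in all 9 livers.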
